A study of Mus musculus with 5 samples.

Results

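Liver RNA of BALB/CByJ mice was set against liver RNA of NZW/LacJ mice, across all genes on the array. The members were chosen by strain label alone. They are 2 of the 5 samples of the series, 1 array for each strain. BALB/CByJ is an albino inbred strain of the BALB/c family, and NZW/LacJ is the inbred New Zealand White strain. Per the labels, each sample was RNA pooled from 3 untreated males aged 10 weeks, and no mutation, transgene or treatment was named for either strain. The other 3 samples were C57BL/6J, FVB/NJ and RIIIS/J livers prepared the same way, and they are given only to show on which side of the pair they lay. Per the design text, the arrays served to follow up an expression quantitative trait locus that had already been identified, that is, a place in the genome where inherited variation goes with the level of a transcript. A pool averages its animals, so the spread between animals is not seen. With 1 array for each strain no test was run, no p-value is given, and every difference describes these 2 arrays.

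Hepatocytes, the main cells of the liver, make bile acids, lipoproteins and most plasma proteins, and they break down drugs and hormones. Many of their genes follow the daily clock, in which the proteins of Bmal1 and Clock switch on Per, Cry and Rev-erb genes whose products then switch the first pair off. Other hepatocyte genes answer to inflammatory cytokines (the acute phase response), to sterols and fatty acids, or to the pulsed growth hormone of males. Inbred strains are known to differ in each of these groups.

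Values are intensities on a linear scale, as the authors deposited them, and each gene is represented by its most intense probe set. Detection was set at 8.41, a floor read off probe sets for chemosensory receptors (of smell, pheromones and taste), which liver is not known to use, and any value below it was raised to it. With 1 array under the floor the fold can only be bounded, and it is written "at least". A value under the floor describes a probe set and does not show that the transcript is absent. Whether sequence differences between the strains at the probes changed a signal was not tested. Differences are log2 values of BALB/CByJ minus NZW/LacJ, so a negative value means lower in BALB/CByJ, and a gene is called apart from 2-fold on.

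Of 18194 genes, 11252 were detected on at least 1 of the 2 arrays and 10685 on both. Of those 11252, 984 genes were apart, which is 8.75%. In BALB/CByJ 607 genes were higher (5.39%) and 377 were lower (3.35%). Among the 10 pairs of strains this was the pair with the fourth fewest genes apart, in a range of 578 for C57BL/6J and BALB/CByJ to 1961 for FVB/NJ and RIIIS/J. The median absolute difference was 0.24 and the 95th percentile was 1.29. At 4-fold or more, 229 genes were apart (2.04%), of which 122 were higher in BALB/CByJ (1.08% of all genes) and 107 lower (0.951%). Genes with a mean intensity of at least 1000 were apart in 7.11% of 1912 cases, against 9.09% of 4655 genes between 100 and 1000.

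No hepatocyte marker was apart between the 2 arrays, and the 3' to 5' ratios used as measures of RNA quality were close. Alb, the serum albumin gene, read 63746 in BALB/CByJ and 64650 in NZW/LacJ, and Ttr, the transthyretin gene, read 63027 on both. Of 11 detected hepatocyte markers 0 were apart, and their median was -0.02, with a range of -0.22 to 0.92. Eif2s3y, a gene of the Y chromosome, read 1202 in BALB/CByJ and 925 in NZW/LacJ. The ratio of the 3' to the 5' probe set was 3.80 in BALB/CByJ and 3.73 in NZW/LacJ for actin, and 0.950 and 0.954 in the same order for Gapdh. The spiked poly-A controls (Dap, Lys, Phe and Thr) were lower in BALB/CByJ, with differences of -2.36 to -1.02, and the hybridisation controls (BioB, BioC, BioDn and Cre) had differences of -0.76 to -0.16. Their part in the gene differences was not tested. Exactly equal values on both arrays were found for 610 genes, 5.71% of those detected on both. The part that the authors' normalisation has in these equal values was not tested.

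**Figure D1:**
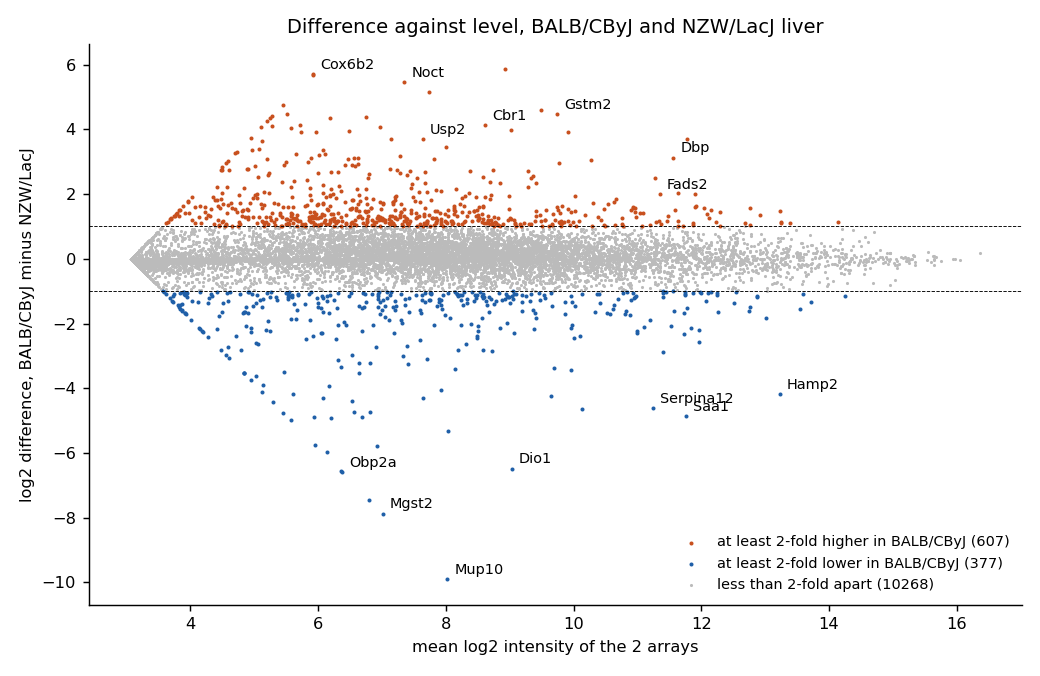
The log2 difference of BALB/CByJ minus NZW/LacJ (vertical) is plotted against the mean log2 intensity of the 2 arrays (horizontal) for 11252 genes, 1 point per gene. Orange points are the 607 genes at least 2-fold higher in BALB/CByJ and blue points the 377 at least 2-fold lower, and the straight edges at the left come from values raised to the floor.

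Genes of the daily clock differed as a group and in opposite directions. Of 12 detected genes that peak near dusk, 10 were at least 2-fold higher in BALB/CByJ and 0 lower, where 5.39% of all genes were higher. Their median was 2.15, against 0.00 over all genes. Of 5 detected genes that peak near dawn, 4 were lower in BALB/CByJ, where 3.35% of all genes were lower, and their median was -1.65 (-0.998 with the mean of all probe sets of a gene). These lists were written with earlier results of these data known, and the hour of collection is not given in the sources used here, so strain and hour cannot be told apart.

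Because promoters of clock genes are known to carry E-boxes (CACGTG, bound by the Clock and Bmal1 proteins) and D-boxes (bound by the proteins of Dbp and Tef), 4 of them are shown. Each is the 250 bases before the transcription start from RefSeq, build GRCm38.p6, 5′ to 3′ on the strand of the gene, with each match in capitals. The E-box was searched as CACGTG, which is the same on both strands, and the D-box as TTANGTAA on both strands. The windows are chr3:95882229-95882478 on the minus strand for Ciart, chr11:69098699-69098948 on the plus strand for Per1 (the first of 2 starts), chr15:81811164-81811413 on the plus strand for Tef (the second of 2 starts) and chr4:151044666-151044915 on the minus strand for Per3.
Ciart, 3 E-boxes: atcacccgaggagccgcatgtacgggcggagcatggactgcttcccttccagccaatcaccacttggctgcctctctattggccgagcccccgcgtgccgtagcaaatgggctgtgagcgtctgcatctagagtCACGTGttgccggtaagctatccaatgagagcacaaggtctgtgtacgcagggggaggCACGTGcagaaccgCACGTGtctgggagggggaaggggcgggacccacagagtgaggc
Per1, 1 E-box: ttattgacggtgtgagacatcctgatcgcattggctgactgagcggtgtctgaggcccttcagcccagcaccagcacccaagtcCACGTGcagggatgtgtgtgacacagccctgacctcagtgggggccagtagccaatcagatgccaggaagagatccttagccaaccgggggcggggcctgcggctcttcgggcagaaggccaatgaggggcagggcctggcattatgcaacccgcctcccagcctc
Tef, 1 E-box: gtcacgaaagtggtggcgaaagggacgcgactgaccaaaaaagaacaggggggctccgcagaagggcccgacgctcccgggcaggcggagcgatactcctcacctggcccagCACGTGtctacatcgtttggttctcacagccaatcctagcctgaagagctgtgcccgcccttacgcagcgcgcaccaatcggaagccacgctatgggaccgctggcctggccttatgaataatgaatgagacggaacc
Per3, 2 D-boxes: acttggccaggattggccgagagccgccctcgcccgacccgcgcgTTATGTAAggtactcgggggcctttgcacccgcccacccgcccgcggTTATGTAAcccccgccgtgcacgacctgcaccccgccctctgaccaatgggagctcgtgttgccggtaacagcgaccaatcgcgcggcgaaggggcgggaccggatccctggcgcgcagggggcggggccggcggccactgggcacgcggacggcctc
Of the 12 dusk genes, 10 had a promoter in the table, and the E-box was found in 3 of them, Per1, Tef and Ciart. It was also found in Cry1, which is 1 of the 5 dawn genes, all with a promoter. The D-box was found in 1 of the 10 dusk genes, Per3, and in 0 of the 5 dawn genes. Over all 32851 promoters of this length 6.02% held the E-box and 2.06% the D-box. These shares are over single promoters, whereas a gene counted if any of its starts held a match. A match is only a run of letters in this window, and binding was not measured here.

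Among the transcriptional repressors of the clock, Ciart read 212 in BALB/CByJ and 22.4 in NZW/LacJ, a difference of 3.24, and the other 3 strains lay between 16.3 and 75.6. Per2, a period gene, read 188 in BALB/CByJ and 29.0 in NZW/LacJ (2.70), and Per3 read 197 and 50.6 in the same order (1.96). All 3 were high in BALB/CByJ, and for Ciart that array stood above every other strain. Per1 was nearer the floor, at 46.75 in BALB/CByJ and 19.05 in NZW/LacJ (1.30). The Rev-erb genes differed less, with Nr1d2 at 4799 in BALB/CByJ and 2131 in NZW/LacJ (1.17) and Nr1d1 at 223 and 136 (0.71). Nr1d1 and Hlf (571 in BALB/CByJ and 432 in NZW/LacJ) were the dusk genes that were not apart, and Bhlhe41 was under the floor on both arrays.

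Output genes of the clock were higher too. Noct, which encodes a rhythmic phosphatase also called nocturnin, read 1077 in BALB/CByJ and 24.5 in NZW/LacJ, a 43.9-fold difference, with 255 to 479 in the other strains. Dbp, a D-box activator, read 8951 in BALB/CByJ and 1023 in NZW/LacJ (8.75-fold), and its further probe set 2439 and 222. Usp2, a rhythmic ubiquitin protease gene, read 718 in BALB/CByJ and 55.3 in NZW/LacJ (12.99-fold). Tef, a relative of Dbp, read 1530 in BALB/CByJ and 301 in NZW/LacJ (5.09-fold). Bhlhe40, a repressor gene, read 1168 in BALB/CByJ and 558 in NZW/LacJ (1.07). Each of these 5 genes was higher in BALB/CByJ, and Noct was lower in NZW/LacJ than in any other strain.

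The dawn genes went the other way. Arntl, the gene for Bmal1, read 14.1 in BALB/CByJ and 68.1 in NZW/LacJ, a difference of -2.27. Clock, the gene for its partner, read 230 in BALB/CByJ and 723 in NZW/LacJ (-1.65), and all 3 of its further probe sets were lower too (-2.96 to -0.85). Nfil3, a D-box repressor, read 274 in BALB/CByJ and 644 in NZW/LacJ (-1.23). Npas2, a relative of Clock, was at least 3.21-fold lower in BALB/CByJ, which lay under the floor, against 27.0 in NZW/LacJ. Cry1 was lower but not apart, at 136 in BALB/CByJ and 254 in NZW/LacJ. For the dusk genes C57BL/6J lay nearer to BALB/CByJ in 11 of 12 and FVB/NJ in 10 of 12, while RIIIS/J did so in 1 of 12.

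**Figure D2:**
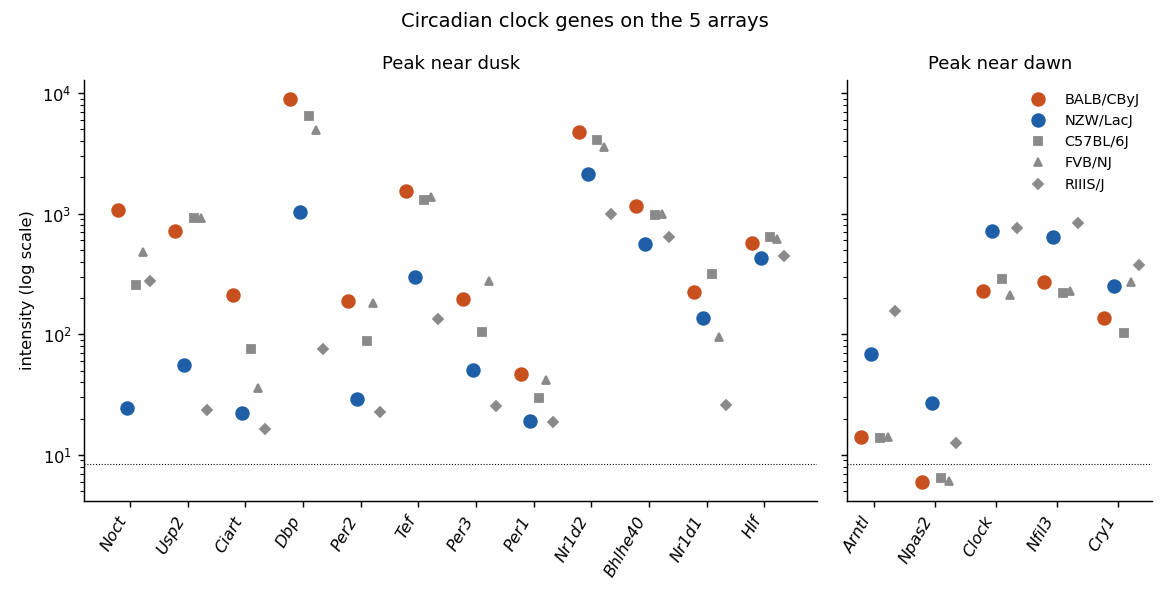
Intensities (log scale) of 12 dusk genes and 5 dawn genes are shown with 1 point for each array, BALB/CByJ first and NZW/LacJ beside it, and the dotted line is the floor of 8.41. BALB/CByJ is above NZW/LacJ in all 12 dusk genes shown and below it in all 5 dawn genes shown, and RIIIS/J is nearer to BALB/CByJ in 1 of the 12 and 1 of the 5.

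Acute phase genes that were apart were all lower in BALB/CByJ. Of 25 detected members 6 were at least 2-fold lower and 0 higher, with a median of -0.29, where 3.35% of all genes were lower and 5.39% higher, and 20 of the 25 were below 0. Saa1, a serum amyloid A gene, read 642 in BALB/CByJ and 18764 in NZW/LacJ, 29.2-fold lower, and its neighbour Saa2 read 225 and 5624, 24.95-fold lower. These genes are close copies and their probe sets may share signal, though the further probe set of Saa1 read 595 in BALB/CByJ and 14837 in NZW/LacJ. In both, NZW/LacJ stood above all 4 other strains.

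The promoters of this pair are shown since these genes are neighbours on chromosome 7 and differed together. The proteins of the C/EBP family, which drive acute phase genes in the liver, bind sites with the core TTGCNNAA, searched on both strands after the values were seen and shown in capitals. The windows, from RefSeq and GRCm38.p6 as above, are chr7:46742981-46743230 on the minus strand for Saa1 and chr7:46751583-46751832 on the plus strand for Saa2.
Saa1: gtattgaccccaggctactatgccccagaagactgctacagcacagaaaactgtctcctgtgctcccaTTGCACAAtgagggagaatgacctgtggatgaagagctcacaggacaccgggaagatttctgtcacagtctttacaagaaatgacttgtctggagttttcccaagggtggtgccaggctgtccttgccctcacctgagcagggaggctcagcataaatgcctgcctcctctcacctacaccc
Saa2: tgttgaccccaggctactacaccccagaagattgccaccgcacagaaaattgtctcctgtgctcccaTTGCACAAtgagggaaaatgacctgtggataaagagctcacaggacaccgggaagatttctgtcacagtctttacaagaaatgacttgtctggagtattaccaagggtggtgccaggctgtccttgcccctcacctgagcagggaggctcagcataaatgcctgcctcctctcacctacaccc
The 2 windows were identical at 238 positions, or 94.8% of the alignment. The core stood 182 bases before the start in Saa1 and 183 bases in Saa2. It was found in 5 of the 6 lower genes (not in Socs3) and in 13 of 22 acute phase genes with a promoter, against 9.56% of all promoters. The 5 include the neighbours Saa1 and Saa2 and the neighbours Orm2 and Orm3, so they are not separate cases. A gene counted if any of its starts held the core, whereas the share is over single promoters. The part of these sites in the differences was not tested.

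Lcn2, which encodes a protein that binds bacterial siderophores, read 33.0 in BALB/CByJ and 261 in NZW/LacJ (7.90-fold lower). The adjacent orosomucoid genes Orm2 and Orm3 read 111 and 10.1 in BALB/CByJ, against 776 and 45.1 in NZW/LacJ. Socs3, a feedback inhibitor of cytokine signalling, read 110 in BALB/CByJ and 352 in NZW/LacJ, a difference of -1.69. All 4 were highest in NZW/LacJ of the 5 strains. Members of high intensity were close. Hp, the haptoglobin gene, read 29241 in BALB/CByJ and 32791 in NZW/LacJ, and Fgb, a fibrinogen gene, read 47624 and 54785. Saa3 and Serpina3n went the other way without being apart, at 362 and 5008 in BALB/CByJ and 286 and 2829 in NZW/LacJ.

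Complement and coagulation genes were mostly level, with 2 of 35 lower and 0 higher, against 3.35% and 5.39% of all genes, and a median of -0.15. C6, a terminal complement component gene, read 939 in BALB/CByJ and 4391 in NZW/LacJ (-2.22), and Mbl1, a mannose-binding lectin gene, read 3663 and 9414 (-1.36). Its paralogue Mbl2 had the opposite sign, at 15636 in BALB/CByJ and 8361 in NZW/LacJ, and was not apart.

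Genes of fatty acid synthesis and oxidation had positive medians, with exceptions. Of 23 genes of fatty acid and triglyceride synthesis 4 were higher and 2 lower, and the median was 0.35. Of 24 PPAR-alpha targets and oxidation genes 5 were higher and 1 lower, with a median of 0.51 and 20 members above 0. Of 21 cholesterol genes 2 were higher and 1 lower, with a median of 0.30. Over all genes 5.39% were higher and 3.35% lower. The clock genes differed between the same 2 arrays, and their part in these differences was not tested.

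Fads2, a desaturase gene of polyunsaturated fatty acid synthesis, read 5207 in BALB/CByJ and 1307 in NZW/LacJ, 3.98-fold higher, while the other 3 strains lay between 2931 and 3108. Its neighbour in the pathway Fads1 read 7346 in BALB/CByJ and 3736 in NZW/LacJ (0.98), just short of 2-fold. Elovl6, a fatty acid elongase gene, read 874 in BALB/CByJ and 299 in NZW/LacJ (1.55). In Fads2 both arrays lay outside the other strains, on opposite sides, and in Elovl6 both lay below them. Thrsp, a lipogenic gene that answers to thyroid hormone, read 16156 in BALB/CByJ and 5797 in NZW/LacJ (1.48). Lpin1, a phosphatidate phosphatase gene, read 552 in BALB/CByJ and 178 in NZW/LacJ (1.63). The exceptions were Acss2, an acetyl-CoA synthetase gene (2777 in BALB/CByJ and 8725 in NZW/LacJ, -1.65), and Agpat2, an acyltransferase gene (3062 and 6370, -1.06). Fasn, the fatty acid synthase gene, was low on both arrays, at 986 in BALB/CByJ and 829 in NZW/LacJ against 1991 to 2725 in the other strains.

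On the oxidation side Cpt1a, which brings fatty acids into mitochondria, read 3218 in BALB/CByJ and 1141 in NZW/LacJ (2.82-fold), and both its further probe sets were higher too, by 1.77 and 1.87 on the log2 scale. Ech1, an enoyl-CoA isomerase gene, read 7021 in BALB/CByJ and 2711 in NZW/LacJ (1.37). Angptl4, a lipase inhibitor gene, read 1648 in BALB/CByJ and 567 in NZW/LacJ (1.54). All 3 were higher in BALB/CByJ, and for Cpt1a and Ech1 it was the highest and NZW/LacJ the lowest of the 5 strains. Cd36, a fatty acid transporter gene, was the member that was lower, at 148 in BALB/CByJ and 397 in NZW/LacJ. Ppara itself read 2267 in BALB/CByJ and 2786 in NZW/LacJ and was not apart.

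Among sterol genes Fdft1, the squalene synthase gene, read 5537 in BALB/CByJ and 2557 in NZW/LacJ (1.11), and Hsd17b7 read 916 and 433 (1.08). Insig2, which restrains sterol synthesis, was lower in BALB/CByJ on all 3 of its detected probe sets, at 2721 against 6776 in NZW/LacJ on the most intense. Abcg5 and its neighbour Abcg8, which together export sterols into bile, read 2308 and 994 in BALB/CByJ, against 692 and 260 in NZW/LacJ. Cyp7a1, the rate-limiting enzyme of bile acid synthesis, read 6805 in BALB/CByJ and 2217 in NZW/LacJ (1.62). These were the 3 genes apart among 19 of bile acid synthesis and transport, all higher (5.39% of all genes were), and the list median was 0.10. Apom, which carries sphingosine 1-phosphate on lipoproteins, was lower at 4379 in BALB/CByJ and 15615 in NZW/LacJ, while the other apolipoprotein genes were within 2-fold and Apoe and Apoc1 read the same on both arrays.

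**Figure D3:**
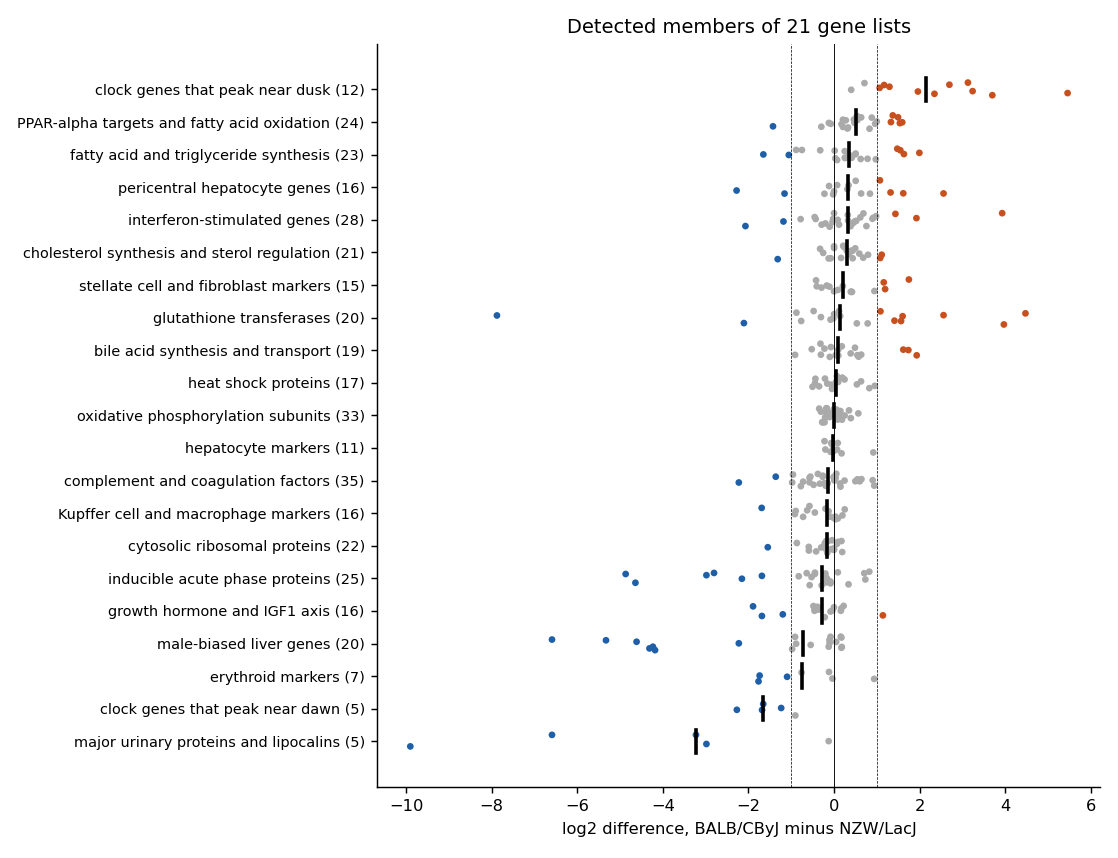
Each point is the log2 difference of BALB/CByJ minus NZW/LacJ for 1 detected gene of a list, the number of detected genes stands in brackets, and the black bar is the list median. Orange and blue mark members at least 2-fold higher and lower in BALB/CByJ, and the dusk clock genes stand at the top with a median of 2.15. The dawn clock genes (-1.65) and the list of major urinary proteins and lipocalins (-3.23, 5 detected genes of which 2 are bounds) stand at the bottom.

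Male-biased liver genes are those that the pulsed growth hormone of males is known to keep up. Of 20 detected members 7 were lower and 0 higher, against 3.35% and 5.39% of all genes, and the median was -0.72. Susd4, a complement regulator gene, read 41.3 in BALB/CByJ and 1659 in NZW/LacJ, 40.2-fold lower, with 195 to 435 in the other strains. Serpina12, the vaspin gene, read 490 in BALB/CByJ and 11999 in NZW/LacJ, and the other strains lay between 1668 and 3525. Sult5a1, a sulfotransferase gene, read 45.0 in BALB/CByJ and 894 in NZW/LacJ. In all 3 BALB/CByJ was the lowest and NZW/LacJ the highest of the 5 strains. Ugt2b38, a glucuronosyltransferase gene, read 185 in BALB/CByJ and 3468 in NZW/LacJ, and Gna14, a G protein subunit gene, read 11.4 and 207. Other male-biased genes were level, among them Hsd3b5 (16434 in BALB/CByJ and 14750 in NZW/LacJ) and Cyp2d9 (33710 and 29928). Of 8 detected female-biased genes 2 were higher and 0 lower, with Abcd2, a peroxisomal transporter gene, at 78.1 in BALB/CByJ and 11.4 in NZW/LacJ.

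In the growth hormone and IGF1 axis 3 of 16 genes were lower and 1 higher, against 3.35% and 5.39% of all genes, with a median of -0.29. Cish, a feedback inhibitor induced by growth hormone, read 71.8 in BALB/CByJ and 267 in NZW/LacJ (-1.89), and NZW/LacJ was the highest of the 5 strains. The receptor gene Ghr (12181 in BALB/CByJ and 12498 in NZW/LacJ), Socs2 (361 on both arrays) and Igf1 (11087 and 9491) were level. Egfr was 2.21-fold higher in BALB/CByJ on its most intense probe set, but 3 of its 5 further probe sets were lower there (-2.75 to -0.82).

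Major urinary proteins carry pheromones in male urine. For Mup10, BALB/CByJ lay under the floor, at least 956-fold lower than NZW/LacJ at 8045. Mup5 read 32.8 in BALB/CByJ and 306 in NZW/LacJ. In both, the other 3 strains lay near NZW/LacJ. Mup3 was level at 37380 in BALB/CByJ and 40758 in NZW/LacJ. Obp2a, an odorant-binding lipocalin gene, lay under the floor in BALB/CByJ, at least 96.4-fold lower than in NZW/LacJ at 811. The urinary genes are near-identical copies, so the signal of a probe set cannot be assigned to a single gene with certainty.

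**Figure D4:**
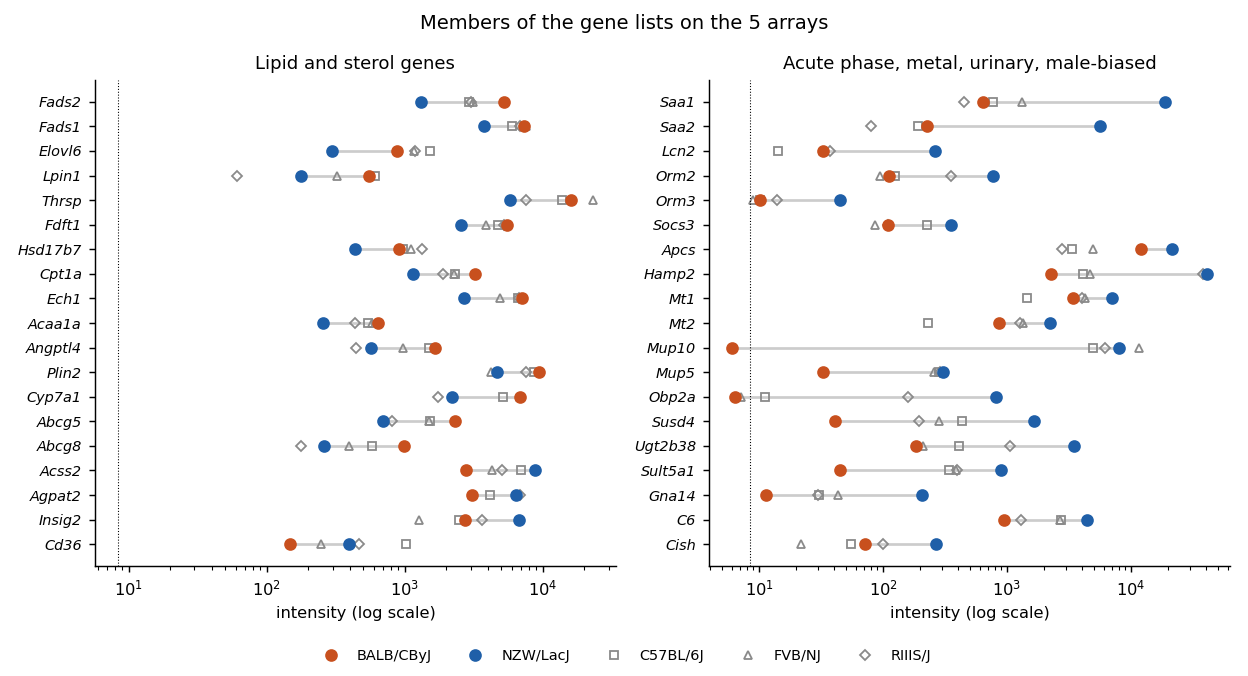
Intensities (log scale) of lipid and sterol genes (left panel) and of acute phase, metal, urinary and male-biased genes (right panel) are drawn with a line joining BALB/CByJ (orange) and NZW/LacJ (blue), the other 3 strains in grey and the floor dotted. In the right panel BALB/CByJ is below NZW/LacJ in each gene drawn, and in the left panel it is above NZW/LacJ in all but Acss2, Agpat2, Insig2 and Cd36.

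Genes of detoxification differed in both directions within families. Of 20 glutathione transferase genes 7 were higher and 2 lower, against 5.39% and 3.35% of all genes, with a median of 0.13. The mu class neighbours Gstm2, Gstm3 and Gstm6 read 4041, 1595 and 2045 in BALB/CByJ, against 182, 271 and 131 in NZW/LacJ. Gstm7 went the other way, at 1060 in BALB/CByJ and 4562 in NZW/LacJ. RIIIS/J lay on the side of NZW/LacJ in all 4, at 217 for Gstm2, 71.2 for Gstm3, 99.5 for Gstm6 and 5196 for Gstm7. The theta class genes Gstt2 (3403 in BALB/CByJ and 1120 in NZW/LacJ) and Gstt3 (481 and 162) were higher too. On the probe set used, Mgst2, a microsomal member, was above the floor in NZW/LacJ alone of the 5 strains. By that probe set BALB/CByJ was at least 235-fold lower than NZW/LacJ at 1978. The mu class genes are close copies and their probe sets may share signal.

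Aldo-keto and carbonyl reductases showed the same mixture, with 3 of 15 higher and 3 lower, against 5.39% and 3.35% of all genes. Cbr1, a carbonyl reductase gene, read 1636 in BALB/CByJ and 94.0 in NZW/LacJ, 17.4-fold higher, with 1343 to 1542 in the other strains. Akr1c12 read 3745 in BALB/CByJ and 250 in NZW/LacJ (15.0-fold higher). The run of neighbours Akr1c18, Akr1c13 and Akr1c19 was lower instead, with Akr1c19 at 1854 in BALB/CByJ and 8589 in NZW/LacJ and Akr1c18 at least 27.1-fold lower. For Cbr1 and Akr1c12 the other 3 strains lay on the side of BALB/CByJ.

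Among 25 xenobiotic cytochrome P450 genes 2 were higher and 3 lower, against 5.39% and 3.35% of all genes, and the median was 0.07. Cyp2b10, the classic target of the receptor CAR, read 392 in BALB/CByJ and 62.2 in NZW/LacJ (6.30-fold), and its 2 further probe sets were higher by 3.75 and 3.81 on the log2 scale. Cyp2c55 read 203 in BALB/CByJ and 714 in NZW/LacJ (-1.81). Cyp2c37 was low on both arrays of the pair, at 29.5 in BALB/CByJ and 18.7 in NZW/LacJ, and so it was in FVB/NJ (28.9), whereas C57BL/6J read 37234 and RIIIS/J 47003. The highly expressed Cyp2e1 (42091 in BALB/CByJ and 40011 in NZW/LacJ) and Cyp3a11 (31816 and 34526) were level. Of 16 glucuronosyl- and sulfotransferase genes 4 were lower and 1 higher, the higher being Sult1c2 at 365 in BALB/CByJ and 53.5 in NZW/LacJ.

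Single hormone and metal genes stood far apart. Dio1, whose enzyme turns thyroxine into active thyroid hormone, had 55.3 in BALB/CByJ and 4960 in NZW/LacJ, 89.7-fold lower and the largest measured difference in that direction among genes with an established name. In the list of thyroid hormone genes 2 of 10 were higher and 1 lower, against 5.39% and 3.35% of all genes, with a median of 0.49. The thyroid-responsive genes Thrsp and Klf9 (15864 in BALB/CByJ and 7342 in NZW/LacJ) were higher. Hamp2, a copy of the hepcidin gene, read 2258 in BALB/CByJ and 40752 in NZW/LacJ (-4.17), with RIIIS/J at 38310 beside NZW/LacJ. Hamp, which encodes the iron hormone itself, was level at 42512 in BALB/CByJ and 39969 in NZW/LacJ. The metallothionein genes Mt1 and Mt2 read 3372 and 855 in BALB/CByJ, against 7021 and 2201 in NZW/LacJ.

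Zhx2, whose product keeps fetal genes silent in adult liver, was at least 7.07-fold lower in BALB/CByJ, where it lay under the floor, against 59.4 in NZW/LacJ. BALB/CByJ was the 1 strain of the 5 in which it was not detected. Of its known targets, Afp, the alpha-fetoprotein gene, read 149 in BALB/CByJ and 40.6 in NZW/LacJ (1.87), and Lpl, the lipoprotein lipase gene, read 3414 and 1290 (1.40). Both were highest in BALB/CByJ of the 5 strains. In the list of Zhx2 and its targets 2 of 7 detected genes were higher and 1, Zhx2 itself, lower, against 5.39% and 3.35% of all genes. As a group the 7 were mixed, with 4 above 0, 3 below and a median of 0.06. Gpc3, Igf2 and Dlk1 were under the floor on both arrays, and Cyp26a1 was level at 286 in BALB/CByJ and 274 in NZW/LacJ.

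In hepatocyte zonation, 4 of 16 pericentral genes were higher and 2 lower (median 0.33), against 5.39% and 3.35% of all genes. Of 14 periportal genes 2 were higher and 2 lower (median -0.05). Slc1a2, a glutamate transporter gene of cells around the central vein, read 414 in BALB/CByJ and 166 in NZW/LacJ (1.32), though a further probe set had the opposite sign at -0.66. Glul, the glutamine synthetase gene of the same cells, read 7027 in BALB/CByJ and 4947 in NZW/LacJ, and Lgr5 read 30.2 on both. Of the periportal genes Pck1, a gluconeogenic gene, was 2.22-fold higher in BALB/CByJ (26964, against 12143 in NZW/LacJ) and Aldh1b1 was lower (314, against 1423 in NZW/LacJ).

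Markers of the other liver cells were detected at low to moderate levels and few were apart, where 5.39% of all genes were higher and 3.35% lower. In whole liver RNA, fewer cells of a type and less RNA per cell cannot be told apart. Of 16 Kupffer cell and macrophage markers 1 was lower and 0 higher, with a median of -0.16 and a summed intensity of 11093 in BALB/CByJ and 12709 in NZW/LacJ. The 1 marker was Cd5l, a macrophage-secreted protein gene, at 520 in BALB/CByJ and 1678 in NZW/LacJ. Clec4f, a marker of Kupffer cells, and Adgre1, a marker of macrophages, were lower by less than 2-fold. They read 610 and 47.6 in BALB/CByJ and 1152 and 88.6 in NZW/LacJ, and Marco was under the floor on both arrays. Of 15 stellate cell and fibroblast markers 3 were higher and 0 lower, namely Lum (229 in BALB/CByJ and 68.2 in NZW/LacJ), Col3a1 (1132 and 495) and Reln (1628 and 727). Of 16 endothelial markers 1 was higher, Stab1 at 199 in BALB/CByJ and 83.0 in NZW/LacJ.

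Blood cell markers were few above the floor. For T and NK cells 4 of 14 markers on the array were detected and 0 were apart. For B and plasma cells 4 of 10 were detected, Cd79a and Pax5 were under the floor on both arrays, and Ighm, the mu heavy chain gene, read 174 in BALB/CByJ and 49.2 in NZW/LacJ. Of its 3 further probe sets, 1 was higher in BALB/CByJ by 4.15 and the others differed by -0.10 and 0.04. Of 7 erythroid markers 3 were lower (3.35% of all genes were) and 0 higher, with a summed intensity of 1478 in BALB/CByJ and 3918 in NZW/LacJ. Their median was -0.76, but -0.15 without the floor and -0.08 without probe sets that may match several transcripts. The 3 lower markers were Alas2, Car2 and Klf1, and with a higher floor of 27.4 Car2 (-0.55) and Klf1 (-0.55) came under 2-fold. Most of the summed intensity on each array came from Alas2. Alas2, the heme synthesis enzyme of red cell precursors, read 1032 in BALB/CByJ and 3444 in NZW/LacJ (-1.74), while Slc4a1, the red cell anion exchanger gene, was close to the floor at 12.98 in BALB/CByJ and 13.3 in NZW/LacJ. Among 9 pancreatic acinar genes on the array, 0 were apart and 6 were under the floor on both.

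Immune genes differed singly. Of 28 interferon-stimulated genes 3 were higher and 2 lower, against 5.39% and 3.35% of all genes, with a median of 0.33. Gbp7, a guanylate-binding protein gene, read 243 in BALB/CByJ and 15.9 in NZW/LacJ, 15.2-fold higher, with 105 to 275 in the other strains. Ifit1 (101 in BALB/CByJ and 37.3 in NZW/LacJ) and Ifi202b (39.9 and 10.5) were the other higher genes. Iigp1, an immunity-related GTPase gene, was lower at 4995 in BALB/CByJ and 11332 in NZW/LacJ. H2-Q10, which encodes a secreted class I molecule of the liver, was the 1 gene apart of 12 in the class I list by its most intense probe set, at 12993 in BALB/CByJ and 29015 in NZW/LacJ. H2-D1, a classical class I gene, was level on that measure (8070 in BALB/CByJ and 6789 in NZW/LacJ). Of its 7 further probe sets, 3 were far higher in BALB/CByJ, at 5244, 3651 and 2895, against 11.9, 21.4 and 85.3 in NZW/LacJ, and the other 4 were within 2-fold. Class I genes are close copies, and these probe sets may match several of them. Outside the list, H2-Bl (71.6 in BALB/CByJ and 612 in NZW/LacJ) and H2-Q5 (63.2 and 132) were lower.

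Smaller groups held single genes that were apart, where 5.39% of all genes were higher and 3.35% lower. Of 23 genes of the urea cycle and amino acid breakdown, Ass1 was higher (154 in BALB/CByJ and 63.5 in NZW/LacJ) and Hal, the histidine ammonia-lyase gene, lower (3311 and 7169). Of 10 carboxylesterase genes 2 were lower, with Ces2e at 1036 in BALB/CByJ and 3166 in NZW/LacJ. Of 11 immediate early genes, which answer quickly to stimuli, 2 were lower, Egr1 (267 in BALB/CByJ and 705 in NZW/LacJ) and Ier2 (234 and 541). Of 15 genes of amino acid and endoplasmic reticulum stress, Herpud1 was higher (4774 in BALB/CByJ and 2376 in NZW/LacJ) and Trib3 lower (149 and 312).

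Few genes of core cell machinery were apart. Of 33 detected genes of oxidative phosphorylation 0 were apart and the median was 0.00, with a range of -0.35 to 0.57. Heat shock genes had 0 of 17 apart and a median of 0.05. Of 22 cytosolic ribosomal protein genes 1 was apart, but 17 were below 0 and 4 above, with a median of -0.16. The gene apart was Rps6, at 144 in BALB/CByJ and 422 in NZW/LacJ, where the other 3 strains read 449 to 479.

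Further genes with large differences, most of them in no list, were chosen by size. Among those higher in BALB/CByJ, Abhd1 read 1273 in BALB/CByJ and 35.6 in NZW/LacJ, and C57BL/6J (54.0) lay beside NZW/LacJ. Capn3, a calpain protease gene, read 216 in BALB/CByJ and 9.71 in NZW/LacJ, with 9.56 to 9.78 in the other strains, so BALB/CByJ alone was high. Spc25, a kinetochore gene, read 494 in BALB/CByJ and 23.7 in NZW/LacJ, and it was the 1 higher gene among 16 of cell division and DNA replication, whose median was -0.03. The 2 lower genes of that list were Rrm2 (11.5 in BALB/CByJ and 60.3 in NZW/LacJ) and Mcm6 (38.2 and 119.9), where 5.39% of all genes were higher and 3.35% lower. Cox6b2, a cytochrome oxidase subunit gene, read 438 in BALB/CByJ and was not detected in NZW/LacJ, at least 52.1-fold higher. Further genes under the floor in NZW/LacJ on the probe set used were Iqca (178 in BALB/CByJ), Serpina3a (170.5) and Setd7, a lysine methyltransferase gene (162). So were Bcl2l11, a cell death gene (140.3), and Cyp2g1 (113). The bounds of these genes were 13.4-fold to 21.1-fold. For Bcl2l11 both further probe sets were above the floor in NZW/LacJ. They were higher in BALB/CByJ by 0.98 and 2.53 on the log2 scale, against a bound of 4.06 on the probe set used. Tspyl4 read 329 in BALB/CByJ and 16.1 in NZW/LacJ. Them7 read 517 in BALB/CByJ and 30.6 in NZW/LacJ, and FVB/NJ (14.8) lay beside NZW/LacJ. Arhgef10 read 195 in BALB/CByJ and 11.7 in NZW/LacJ, and Dnaic1, a dynein gene of cilia, read 353 and 22.9. For Tspyl4, Dnaic1, Cyp2g1, Setd7 and Iqca, BALB/CByJ was the highest of the 5 strains.

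Among those lower in BALB/CByJ, Clec2h, a lectin gene, read 8.83 in BALB/CByJ and 558 in NZW/LacJ, and FVB/NJ (9.24) lay beside BALB/CByJ. Camk1d, a calcium-dependent kinase gene, read 16.4 in BALB/CByJ and 895 in NZW/LacJ, and its 2 further probe sets were lower as well (-4.31 and -3.70). Defb1, a defensin gene, read 13.4 in BALB/CByJ and 405 in NZW/LacJ, and Myom2, a sarcomere gene, was at least 176-fold lower. In these last 2 genes NZW/LacJ alone was high. Plscr2, a scramblase gene, read 18.9 in BALB/CByJ and 556 in NZW/LacJ, with 225 to 386 in the other strains, so BALB/CByJ alone was low. Rpgrip1 read 11.3 in BALB/CByJ and 335 in NZW/LacJ, Mmd2 read 18.35 and 485, and Acnat2, a gene for an enzyme that conjugates fatty acids to amino acids, read 21.98 and 579. Nlrp12, a gene of the NOD-like receptor family, was at least 94.8-fold lower, and BALB/CByJ was the 1 strain of the 5 under the floor.

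**Figure D5:**
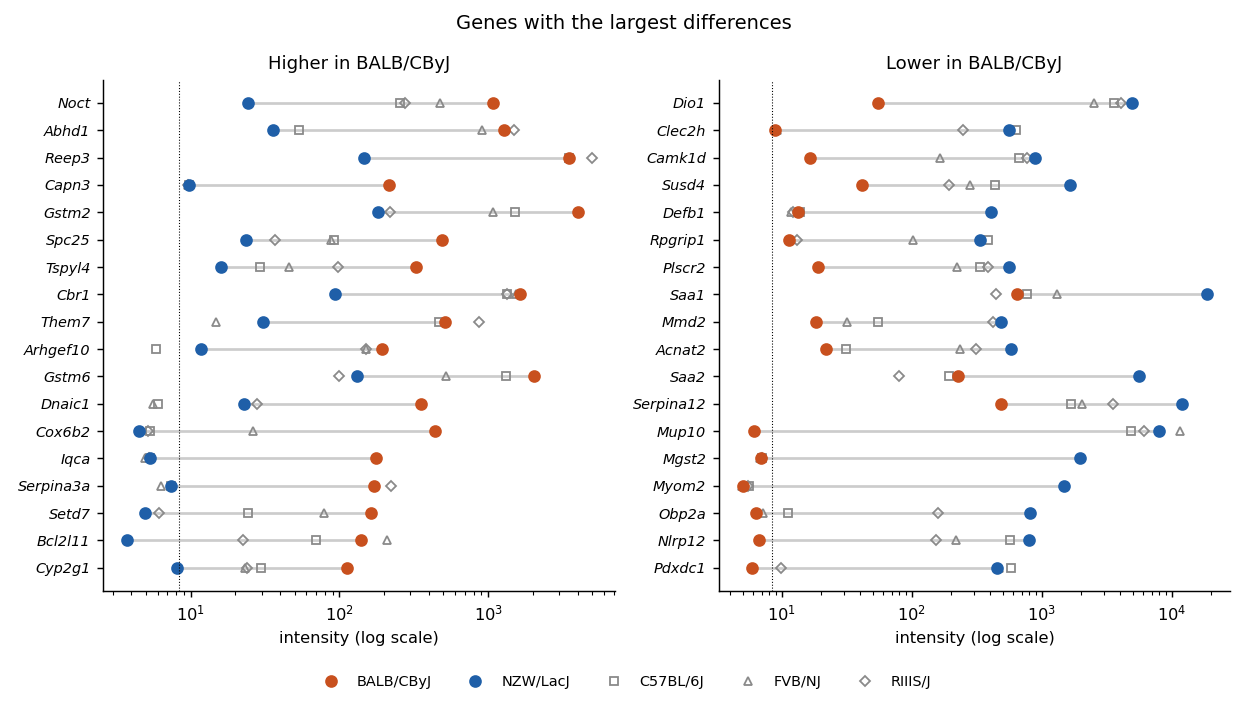
Intensities (log scale) are drawn for the genes with an established name that differed most, 12 measured above the floor on both arrays and then 6 with 1 array under it, for genes higher (left panel) and lower (right panel) in BALB/CByJ. Orange is BALB/CByJ, blue NZW/LacJ, grey symbols the other 3 strains and the dotted line the floor of 8.41, and Capn3, Defb1, Mgst2 and Myom2 are cases in which 4 strains share a low value.

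The other strains show which array departed for a minority of the genes only. Of the 607 genes higher in BALB/CByJ, that array lay at least 2-fold outside the range of the other 3 strains in 90, NZW/LacJ in 81, both in 7 and neither in 429. Of the 377 lower genes, BALB/CByJ lay outside in 45, NZW/LacJ in 84, both in 8 and neither in 240. Over the 984 genes, C57BL/6J was nearer to BALB/CByJ in 62.2%, FVB/NJ in 63.7% and RIIIS/J in 38.3%. The probe set with the highest mean was chosen over all 5 arrays, so the other strains also entered that choice.

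Further probe sets gave a check within the arrays. Of the 607 higher genes, 264 had a further detected probe set, and in 177 every such probe set had the same sign. Of the 377 lower genes, 165 had one, and in 134 every further probe set had the same sign. At least 1 further probe set was 2-fold apart in the same direction for 122 of the 264 and 72 of the 165, and 2-fold in the opposite direction for 6 and 4. With the mean of all probe sets in place of the most intense one, 20 genes named by rule came under 2-fold, among them Arntl (-0.998), Npas2 (-0.40), Acss2 (-0.98), Angptl4 (0.70), Cd36 (-0.80), Fdft1 (0.51), Hsd17b7 (0.91), Trib3 (-0.96), Pck1 (0.85), Afp (0.89), Mt1 (-0.56), Klf9 (0.72), Col3a1 (0.61), Reln (0.55), Slc1a2 (0.26), Ighm (0.45) and Rps6 (-0.82). With plain _at probe sets only, Socs3 (-0.86), Col3a1 (0.02), Mt1 (-0.06), Klf9 (0.42), Cd36 (-0.89), Fdft1 (0.98), Hsd17b7 (0.84), Rrm2 (-0.93) and Reep3 (0.66) came under 2-fold. The higher floor brought Orm3 (-0.72), Ifi202b (0.54), Klf1 (-0.55), Car2 (-0.55), Acot3 (0.62), Cyp4a14 (0.099) and Jchain (0.17) under 2-fold. Cyp4a14 had been counted among the higher PPAR-alpha targets, Jchain among the B and plasma cell markers, and Klf1 and Car2 among the lower erythroid markers. Herpud1 came under 2-fold after both scalings (0.988 after quantile normalisation and 0.98 after loess), and Hsd17b7 after loess (0.987). So did Cbr4, Jchain and Rnf43 after both scalings. Probe sets of a gene share the same RNA, so this does not speak to the spread between animals.

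Genes apart in the same direction also lay side by side in the reference gene table. There were 26 pairs and 4 runs of 3 among the higher genes, and 22 pairs and 1 run of 3 among the lower ones. Where the next gene in the table was detected, it was higher too for 34 of 383 higher genes (8.88%), against 5.26% of 6971 other genes, and lower too for 24 of 254 lower genes (9.45%), against 3.15% of 7100 other genes. These shares are descriptions, with no test. Several are families of close copies, such as Gstm6, Gstm3 and Gstm2 on chromosome 3, Akr1c18, Akr1c13 and Akr1c19 on chromosome 13, and Mup10 and Mup5 on chromosome 4. Others are unlike genes, such as Dio1 and Yipf1 on chromosome 4 and Setd4 and Cbr1 on chromosome 16.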

How the data were processed

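The samples were 5 pools of liver RNA on Affymetrix arrays, and BALB/CByJ was compared with NZW/LacJ. The authors deposited linear intensity values. Per the submitters' processing notes, the tools were GCOS and GCRMA, and for both, the version is not given in the sources used here. On the array were 45101 probe sets, of which 34958 carried 1 gene in the platform annotation, 932 several and 9211 none. Symbols were updated through a RefSeq gene table (assembly GRCm38.p6), where 34754 probe sets matched, and it gave the gene order. From the deposited intensities, log2 values were taken, and a gene was represented by whichever of its probe sets averaged highest across the 5 arrays. The floor of 8.41 was the 95th percentile of 86 chemosensory receptor probe sets. A gene counted as apart at 2-fold or more. Precision is limited by having 1 array for each strain, so nothing was tested.

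The members and the 45 gene lists were chosen with earlier results of these data known, and some lists share genes. By rule, the genes named were, for each direction, the 12 with the largest measured difference and the 6 with the largest bound. To these came up to 6 members of a list by size of difference, plus defining members that were level. Other genes were named outside this rule, among them Per1, Per3, Gstt3, H2-Bl, H2-Q5, Cyp2c37, Setd4 and Yipf1. Gene models without an established name were left out of the prose. The calculation was checked on simulated data. The alternatives changed the floor (none, or an intensity of 27.4), the probe sets of a gene (their mean, each further one, or those with a plain _at name only), the scaling (quantile, or loess with a span of 0.3) and the fold (4-fold). Tools were Python 3.11.15, numpy 2.4.6, pandas 2.3.3, statsmodels 0.14.6 and matplotlib 3.10.9.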

Additional observations from a re-analysis of the deposited data

How the results depend on the processing

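No paired analysis was possible because BALB/CByJ and NZW/LacJ were hybridised to 1 array each. At 4-fold in place of 2-fold, 122 genes were higher and 107 lower in BALB/CByJ, and under the other 6 array-wide settings both counts stayed within 1.5 times the 607 and 377 given. Of the 984 genes apart, 620 were also apart with the mean of all probe sets, 877 after loess, 891 after quantile normalisation, 797 with plain _at probe sets only and 844 with the higher floor. The median of dusk clock genes was 1.64 with the mean of all probe sets. A further probe set had the opposite sign for Egfr (-1.17, -2.75 and -0.82), Acss2 (0.22), H2-Ea (0.0301), Ighm (-0.10), Pdxdc1 (7.01), Slc1a2 (-0.66) and Thrsp (-0.0542), and the mean of all probe sets turned Egfr to -0.23. Of the named genes, 49 moved by more than 0.45 on the log2 scale (the spread between probe sets of a gene) with the mean of all probe sets, 36 with the higher floor, 20 with plain _at probe sets and 9 without a floor, and 0 after either scaling, although 5 named genes just past 2-fold came under it after loess and 4 after quantile normalisation. The cause was not tested. Low intensities near the floor limit the smaller values.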

Other observations

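For some genes apart, probe sets of the gene gave unlike values. On its most intense probe set Pdxdc1 was at least 54.0-fold lower in BALB/CByJ, which lay under the floor, than in NZW/LacJ at 454, whereas another probe set read 1086 in BALB/CByJ and was under the floor in NZW/LacJ. Reep3 read 3506 in BALB/CByJ and 146 in NZW/LacJ, and 1 of its 5 further probe sets differed by as much (928 in BALB/CByJ and 21.4 in NZW/LacJ), while the other 4 differed by 0.29 to 0.66 on the log2 scale. Egfr had probe sets apart in both directions.

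Among 3139 detected probe sets with no gene listed, 8.601% were apart, 99 higher and 171 lower in BALB/CByJ. The share of genes apart by chromosome lay between 6.52% on the X chromosome and 11.2% on chromosome 3, leaving out the Y chromosome with 3 detected genes. Ighm read 11859 in FVB/NJ, where Cd79a (898) and Marco (172) were detected as well, although Cd79a and Marco were under the floor in both BALB/CByJ and NZW/LacJ.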
